A study of Mus musculus with 30 samples.

Results

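The comparison described here set liver transcripts of insulin-injected mice against those of vehicle-injected mice at the sampling point numbered 5, taken from a series of 5 such points. Its members were the 3 insulin and the 3 PBS libraries whose titles end in 5, which are 6 of the 30 libraries in the series. The genes described were the 12018 of 29117 in the table that reached 1 FPKM (fragments per length of transcript and per mapped fragments) in at least 3 of those 6 libraries. All mice were C57BL/6J, an inbred strain, aged 10 weeks, and had gone without food for 12 to 16 h. One group then received human insulin intraperitoneally at 0.7 U/kg, and the control group received phosphate-buffered saline (PBS), so the fast was common to both. Poly(A) RNA of the left liver lobe was sequenced. The labels number the points without giving minutes, and the series design calls the libraries of a group biological triplicates spread over 4 h in all. If some libraries shared an animal, the p-values cover only the spread between libraries, which may be technical. A single dose in fasted mice was studied, with no fed and no uninjected group among the 6 libraries.

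Insulin binding to its receptor on hepatocytes activates the kinase Akt, which phosphorylates the forkhead factors of the Foxo family and removes them from the nucleus. Foxo targets such as Igfbp1 and G6pc then fall, while the lipogenic factor SREBP-1c rises. When blood glucose drops after insulin, glucagon, adrenaline and glucocorticoids act in the opposite direction on many of the same genes, through cAMP and its factor CREB and through the glucocorticoid receptor. Glucose and hormone levels were not part of the data analysed here.

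Several library properties bear on every value below. Insulin and PBS libraries were never on the same sequencing lane (the insulin libraries came from lanes 1 and 2, the PBS libraries from lanes 3, 4 and 5), and the effects of lane and treatment cannot be told apart. Insulin replicate 1 stood apart in ribosomal RNA, which took 12.0% of its summed FPKM against 0.90% to 1.37% in the other 5 libraries. The insulin libraries numbered 1 at points 1 to 4 had 11.2% to 11.6%. Leaving out the point 5 library did not remove those from the fit over the series. PBS replicate 2 stood apart in the major urinary protein genes, with a sum of 25586 FPKM over 22 genes against 89558 to 140047. Pearson correlations across the genes tested, on the log2(FPKM + 1) scale, were 0.972 to 0.979 among insulin libraries, 0.972 to 0.975 among PBS libraries and 0.948 to 0.970 between treatments. All 7 hepatocyte markers in the table were expressed, with summed levels of 41906 to 54182 FPKM in insulin and 43416 to 57085 FPKM in PBS. None of the 7 differed in limma's test. The liver label and its defining transcripts matched.

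At point 5 the insulin libraries differed from the PBS libraries in 2621 genes, or 21.8% of those tested, at an adjusted p below 0.05 (limma, Benjamini-Hochberg adjustment, two-sided). Of these, 399 rose (3.32%) and 2222 fell (18.5%). Sizes are differences of log2(FPKM + 1), insulin minus PBS, between means of 3 libraries per group. Each is given with limma's standard error (SE). Its spread was pooled over all 10 groups of the series and drawn toward that of genes at a similar level. The log2(FPKM + 1) scale understates the change of low genes. By at least 1 on this scale, 53 genes rose and 200 fell, and these numbers moved with the settings: 85 and 504 with a pseudocount of 0.1, 96 and 93 with median-ratio scaling, and 72 and 45 after the GC correction described below. The 6 libraries separated by treatment in 4437 genes (36.9%), of which 806 were higher and 3631 lower in insulin. The median difference over all genes tested was -0.17, so the excess of lower genes depended on how libraries were scaled. With median-ratio scaling, 1174 genes rose (9.77%) and 1143 fell (9.51%), and with quantile normalization 1184 rose and 1147 fell. Without insulin replicate 1, 278 genes rose and 915 fell as deposited. Without PBS replicate 2 the numbers were 438 and 1582, and without PBS replicate 3 they were 208 and 1201.

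The difference between treatments followed the base composition of the transcripts. Genes were placed in 10 equal groups by GC content. In the group with the lowest GC content (17.1% to 41.7% of the longest transcript) the median difference was 0.14, 10.5% of genes rose and 1.25% fell. In the group with the highest GC content (57.5% to 84.2%) the median was -0.52, 0.582% rose and 46.8% fell. The genes that rose had a median GC content of 43.7%, those that fell 54.7%, and all genes tested 49.7%. At point 4 the same outer groups had medians of 0.15 and -0.41. Each library's deviation from the mean of all 30 correlated with GC content across genes at a Spearman rho of -0.32, -0.37 and -0.36 in the insulin libraries and of 0.33, 0.16 and 0.50 in the PBS libraries of point 5. PBS replicate 1, on lane 3 at every point, had rho of -0.33 and -0.31 at points 1 and 2. At points 3, 4 and 5 its rho was 0.44, 0.32 and 0.33. A correction that removed the trend with GC from each library left 549 genes higher (4.57%) and 475 lower (3.95%). Of the genes called as deposited, 286 of 399 higher (71.7%) and 455 of 2222 lower (20.5%) were called in the same direction after it. The part of GC content in the differences was not tested further. Under all 4 scalings (as deposited, median-ratio, quantile and GC-corrected), 286 genes rose and 374 fell, and of these 173 and 205 also passed without insulin replicate 1, both as deposited and GC-corrected.

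**Figure D1:**
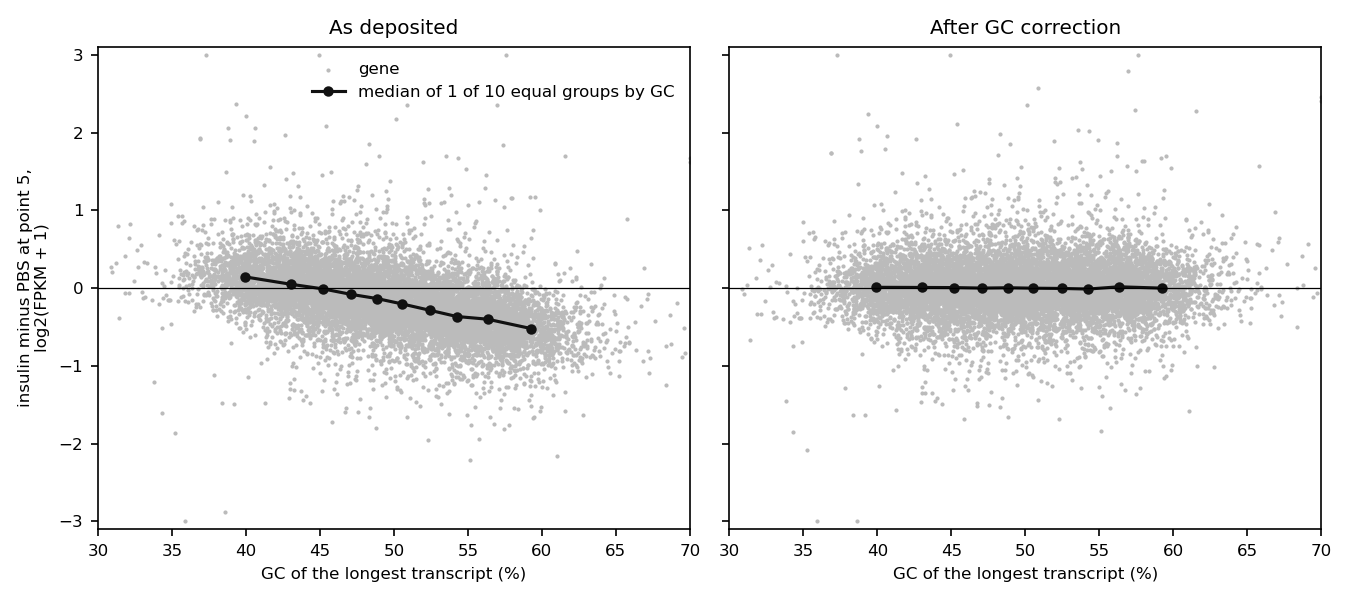
Insulin minus PBS difference at point 5 in log2(FPKM + 1) for each gene (grey points, drawn at the edge where they exceed 3 in size, and not drawn where GC lies beyond the axis) against the GC content of its longest transcript in percent, as deposited (left) and after GC correction (right). The black line joins the medians of 10 equal groups of genes and runs from 0.14 down to -0.52 on the left, while on the right it stays between -0.01 and 0.02.

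The Foxo targets Pdk4, Igfbp1 and Txnip were higher in the insulin libraries at point 5, while Irs2 and Pck1 did not pass. Pdk4 (chr6:5483351-5496309, minus strand), a kinase that inactivates pyruvate dehydrogenase and so spares glucose carbon, measured 24.1, 23.3 and 25.0 FPKM in insulin replicates 1 to 3 and 1.61, 3.01 and 1.64 FPKM in PBS. The groups lay far apart, with a difference of 3.05 ± 0.26 (SE, n = 3 per group, adjusted p = 1.06e-07), the highest of all named genes. Igfbp1 (chr11:7197782-7202546, plus strand), a secreted protein that binds insulin-like growth factors, measured 170, 244 and 441 FPKM in insulin and 54.3, 121 and 19.4 FPKM in PBS. The lowest insulin library exceeded the highest PBS library although both groups were spread, and the difference was 2.36 ± 0.55 (adjusted p = 0.00443). Txnip (chr3:96557957-96561883, plus strand), an arrestin that limits glucose uptake, measured 161, 176 and 151 FPKM against 45.3, 49.1 and 38.7 FPKM. The groups did not overlap, and the difference was 1.86 ± 0.16 (adjusted p = 1.06e-07). These 3 genes passed under all 4 scalings and with any single library left out. The 12 highest and 12 lowest differences were chosen among genes whose groups lay apart, so separate groups add no support for any of them. Such groups were found in 36.9% of all genes tested. Gene positions are those of GENCODE M21 on GRCm38.

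Of the 21 insulin receptor and Foxo genes tested, 5 rose and 2 fell as deposited, against 3.32% and 18.5% of all genes. The list median was 0.01, and -0.17 over all genes. Beside the 3 above, Ccng2, a cyclin that accompanies cell cycle exit, rose by 1.11 ± 0.20 (adjusted p = 0.000755), and the sestrin Sesn1 rose by 0.53 ± 0.14 (adjusted p = 0.0121). Sesn1 was no longer called when insulin replicate 3 (adjusted p = 0.0796) or PBS replicate 2 (0.0545) was left out. The 2 that fell were Pik3r1, the regulatory subunit of the phosphoinositide kinase below the receptor, by 0.54, and the activin subunit gene Inhbe by 0.89. Neither of those passed after GC correction (adjusted p = 0.0619 and 0.154), and 0 fell with median-ratio scaling or with insulin replicate 1, insulin replicate 3 or PBS replicate 3 left out. With that correction 7 rose and 0 fell, the added ones being the factors Foxo3 and Foxo4 themselves, and the list median was 0.23. The calls of Foxo3 and Foxo4 were lost when insulin replicate 1 was left out as well (5 higher, 0 lower). The receptor gene Insr stood at 23.3 to 25.6 FPKM in insulin and 23.9 to 29.5 FPKM in PBS and did not pass (-0.07 ± 0.10, adjusted p = 0.645). Irs2, the adaptor between receptor and kinase, measured 3.46, 4.83 and 4.74 FPKM against 2.61, 4.38 and 3.44 FPKM, overlapping ranges with a difference of 0.26 ± 0.38 (adjusted p = 0.652).

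**Figure D2:**
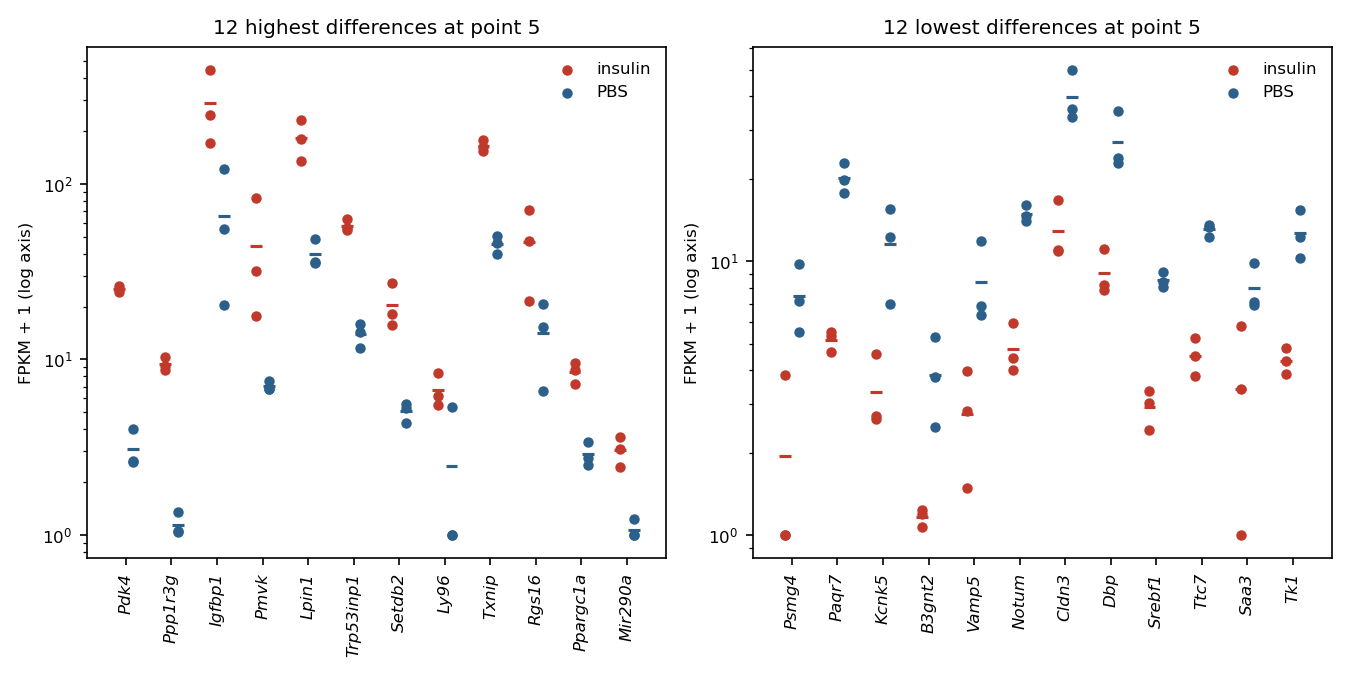
FPKM + 1 on a log axis in each of the 3 insulin (red) and 3 PBS (blue) libraries of point 5, for the 12 genes with the highest (left) and the 12 with the lowest (right) difference among those that passed. Each dot is a library and each bar a group mean, and the groups of every gene lie apart because the choice of genes required it.

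The regions around the start sites of 3 of the genes that rose are shown because they hold short motifs of the pathways named above. They are RefSeq promoter sequences on GRCm38.p6, from 250 bases before to 50 bases after the start, written 5′ to 3′ on the strand of the gene, and capitals mark a motif match found by searching both strands.
Igfbp1, chr11:7197537-7197836, plus strand: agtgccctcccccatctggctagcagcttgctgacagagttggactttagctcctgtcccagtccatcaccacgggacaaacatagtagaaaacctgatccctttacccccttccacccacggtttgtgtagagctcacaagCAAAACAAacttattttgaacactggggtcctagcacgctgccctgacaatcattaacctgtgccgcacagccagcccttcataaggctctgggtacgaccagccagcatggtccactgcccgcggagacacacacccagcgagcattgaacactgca
Txnip, chr3:96557707-96558006, plus strand: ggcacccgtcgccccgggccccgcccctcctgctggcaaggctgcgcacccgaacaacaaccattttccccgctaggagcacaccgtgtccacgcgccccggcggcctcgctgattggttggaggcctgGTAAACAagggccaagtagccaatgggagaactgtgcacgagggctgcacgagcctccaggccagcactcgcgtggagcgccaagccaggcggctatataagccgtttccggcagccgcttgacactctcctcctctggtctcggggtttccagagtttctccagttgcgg
Ppargc1a, chr5:51567676-51567975, minus strand: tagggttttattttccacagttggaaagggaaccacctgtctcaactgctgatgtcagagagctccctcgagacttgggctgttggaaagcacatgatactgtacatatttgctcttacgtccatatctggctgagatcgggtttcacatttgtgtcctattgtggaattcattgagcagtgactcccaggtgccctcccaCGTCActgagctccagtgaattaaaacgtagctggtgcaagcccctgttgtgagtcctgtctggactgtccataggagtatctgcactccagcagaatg
In Igfbp1 the match was CAAAACAA, the core of the insulin response element, 108 bases before the start. In Txnip it was the forkhead motif GTAAACA, 121 bases before the start. In Ppargc1a it was TGACG, the core of the cAMP response element (CRE), on the opposite strand, 49 bases before the start. These motifs are common. Of all 32851 promoters in the RefSeq table, 2.51% held CAAAACAA, 3.65% held GTAAACA and 20.8% held TGACG. A promoter was found for 7883 of the gene symbols tested, 259 of those that rose and 1559 of those that fell. CAAAACAA was in 2.32% of the promoters of genes that rose, 2.57% of those that fell and 2.28% of all tested, and GTAAACA in 3.47%, 3.21% and 3.41%. Among genes called under all 4 scalings, CAAAACAA was in 2.05% of those higher and 3.54% of those lower. The promoter of Irs2, which did not pass, also held it. None of these motifs was in the promoters of Pdk4, G6pc, Lpin1, Setdb2 and Rgs16, which rose. TGACG was also in the promoters of Ppp1r3g, which rose, and Pck1, which did not pass. The promoters of Cldn3, Tk1, Ttc7, B3gnt2 and Vamp5, which fell, held TGACG as well. The full CRE, TGACGTCA, was in 5.02% of the promoters of genes that rose, 2.50% of those that fell and 3.67% of all tested, and the core, which it contains, in 42.1%, 31.2% and 36.5%. These shares are descriptions without a test, and the groups also differed in transcript GC content, as given above.

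Genes of glucose production went both ways. Ppargc1a (chr5:51454250-51567726, minus strand), the coactivator PGC-1alpha of fasting metabolism, measured 6.24, 7.66 and 8.52 FPKM in insulin and 1.74, 2.41 and 1.51 FPKM in PBS. The difference was 1.56 ± 0.15 (adjusted p = 2.47e-07), with no overlap. G6pc (chr11:101367561-101377903, plus strand), the catalytic subunit of glucose-6-phosphatase, measured 147, 154 and 202 FPKM against 113, 85.8 and 61.2 FPKM, also without overlap. It rose by 0.97 ± 0.29 (adjusted p = 0.0213), a call lost when insulin replicate 3 (adjusted p = 0.0836) or PBS replicate 3 (0.121) was left out. Got1, the cytosolic aspartate aminotransferase, measured 404, 377 and 503 FPKM against 198, 236 and 115 FPKM and rose by 1.27 ± 0.25 (adjusted p = 0.00161). Pck1 (chr2:173153048-173159273, plus strand), the cytosolic phosphoenolpyruvate carboxykinase that commits carbon to glucose, measured 1156, 1456 and 1577 FPKM against 1504, 1374 and 1189 FPKM. These ranges overlapped, and the difference was 0.04 ± 0.16 (adjusted p = 0.89).

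Of the 14 gluconeogenesis genes tested, the 3 above rose and 5 fell, against 3.32% and 18.5% of all genes. Their median was -0.37. The 5 were Gpt, the alanine aminotransferase, by 0.86, pyruvate carboxylase Pcx by 0.62, fructose bisphosphatase Fbp1 by 0.57, the glucose-6-phosphate transporter Slc37a4 by 0.57 and Got2 by 0.47. Gpt stood at 106, 106 and 105 FPKM in insulin and 192, 195 and 191 FPKM in PBS, and it was the single member that still fell after GC correction (-0.39, adjusted p = 0.0382). With that correction the list had 3 higher, 1 lower and a median of 0.04, and without insulin replicate 1 it had 3 and 3 as deposited. Of 15 genes of glycolysis and glucose sensing, 4 fell as deposited (Pfkl, Pklr, Tpi1 and Khk, by 0.55 to 0.79) and 0 after GC correction. Leaving out insulin replicate 1 also ended each of those 4 calls, at adjusted p = 0.0582, 0.0901, 0.162 and 0.123.

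Targets of cAMP and of the glucocorticoid receptor were among the genes that rose. These lists share called members with each other (Tat and Per1) and with gluconeogenesis (G6pc, Ppargc1a and Got1). Of 11 CREB targets tested, 4 rose (Ppargc1a, Crem, Tat and G6pc) and Per1 fell by 0.49. Of all genes tested, 3.32% rose and 18.5% fell. Per1 did not pass with median-ratio scaling (adjusted p = 0.142), and after GC correction its difference was 0.03. Crem, a cAMP-responsive modulator, measured 16.7, 23.3 and 27.6 FPKM in insulin and 6.12, 9.13 and 6.95 FPKM in PBS, a difference of 1.48 ± 0.30 (adjusted p = 0.00165). Tat, the tyrosine aminotransferase induced by glucocorticoids and cAMP in liver, measured 990, 1165 and 1609 FPKM against 687, 614 and 490 FPKM, a difference of 1.05 ± 0.22 (adjusted p = 0.0019). Both sets of libraries lay apart. Nr4a1, Nr4a2 and Nr4a3, early CREB targets, did not reach the level required for testing.

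Of 17 glucocorticoid receptor targets, 5 rose and 1, Per1, fell, against 3.32% and 18.5% of all genes tested. The list median of 0.50 was the highest of the 33 biological lists. After GC correction 7 rose and 0 fell, against 4.57% and 3.95% of all genes, and the median was 0.80. The 5 were Lpin1, Got1, Tat, Zbtb16 and Ddit4. Zbtb16, a zinc finger repressor, measured 11.8, 11.6 and 10.7 FPKM against 4.55, 5.26 and 7.74 FPKM and rose by 0.88 ± 0.21 (adjusted p = 0.00496). Ddit4, an inhibitor of the growth kinase mTORC1, measured 12.3, 11.1 and 37.4 FPKM against 11.0, 5.68 and 5.90 FPKM. Its call, 1.16 ± 0.37 (adjusted p = 0.027), rested on insulin replicate 3, without which the adjusted p was 0.206. With PBS replicate 2 or PBS replicate 3 left out it was 0.0929 or 0.102.

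Lipid genes fell at the head of the lipogenic programme while lipin rose. Srebf1 (chr11:60199089-60222581, minus strand), which encodes the insulin-induced lipogenic factor SREBP-1, measured 2.34, 2.04 and 1.41 FPKM in insulin and 8.11, 7.38 and 7.06 FPKM in PBS. The groups were well apart and the difference was -1.55 ± 0.24 (adjusted p = 0.000168), or -1.06 after GC correction (adjusted p = 0.00191). Fatty acid synthase, Fasn, measured 3.53, 3.33 and 2.94 FPKM against 9.95, 6.48 and 9.32 FPKM, a difference of -1.15 ± 0.25 (adjusted p = 0.00281), and Acss2, the cytosolic acetyl-CoA synthetase, fell by 0.73 (adjusted p = 0.00153). Both also fell after GC correction, by 0.68 and 0.45. With insulin replicate 1 left out of the corrected fit, the adjusted p was 0.0483 for Fasn and 0.0869 for Acss2. Lpin1 (chr12:16535669-16610966, minus strand), a phosphatidate phosphatase that also acts as a coactivator in fasting, measured 134, 180 and 229 FPKM against 47.5, 34.6 and 34.5 FPKM. It rose by 2.17 ± 0.28 (adjusted p = 2.57e-05) with wide separation. Of 19 fatty acid synthesis genes, 1 rose and 7 fell, against 3.32% and 18.5% of all genes tested. The others that fell were Mid1ip1, Acaca, Slc25a1 and Dgat2. With median-ratio scaling 3 rose and 5 fell, and 3 fell as deposited with insulin replicate 1 or insulin replicate 3 left out. After GC correction 2 rose (Lpin1 and the citrate lyase Acly), 3 fell (Srebf1, Fasn and Acss2) and the median moved from -0.34 to 0.02. The desaturase Scd1 ranged from 205 to 396 FPKM in insulin and from 199 to 851 FPKM in PBS and did not pass (-0.34 ± 0.39, adjusted p = 0.562).

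In the sterol pathway the kinase Pmvk (chr3:89454541-89469013, plus strand), which phosphorylates phosphomevalonate, measured 81.4, 16.6 and 30.8 FPKM in insulin and 6.54, 5.80 and 5.81 FPKM in PBS. It rose by 2.35 ± 0.45 (adjusted p = 0.00132), and by 2.79 after GC correction, with insulin replicate 1 the highest. Of 23 sterol genes, Pmvk alone rose and 4 fell as deposited, against 3.32% and 18.5% of all genes tested. The share that fell was near that of all genes. Among the 4 that fell were Acat2, by 0.70, and the factor Srebf2, by 0.73. Acat2 stood at 21.3, 26.5 and 24.1 FPKM in insulin against 34.9, 46.3 and 37.7 FPKM in PBS. Acat2 also fell after GC correction (-0.53, adjusted p = 0.0103), while Srebf2 did not pass (adjusted p = 0.341). Without insulin replicate 1 the sterol list had 1 gene higher and 6 lower, and its median was -0.50 in place of -0.20.

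Of 23 genes of fatty acid oxidation and ketone body synthesis, 2 rose and 3 fell, against 3.32% and 18.5% of all genes tested. The balance turned with the scaling, to 5 higher and 2 lower under median-ratio scaling, 4 and 2 under quantile normalization and 3 and 1 after GC correction, and without insulin replicate 1 it was 2 and 1. Pdk4 was one that rose, and the lipase inhibitor gene Angptl4, a fasting-induced hepatokine, was the other, at 86.6, 89.3 and 84.6 FPKM against 55.3, 55.7 and 61.3 FPKM (0.59 ± 0.14, adjusted p = 0.00653). The ketone body dehydrogenase Bdh1 fell by 0.63 ± 0.12 (adjusted p = 0.000978), also after GC correction (-0.34, adjusted p = 0.0374). Bdh1 did not pass when leaving out insulin replicate 1 was combined with the GC correction (adjusted p = 0.0556). Acaa2 fell as deposited but not after that correction (adjusted p = 0.177). The receptor Ppara (-0.25 ± 0.15) and the carnitine transferase Cpt1a (-0.28 ± 0.15) did not pass (adjusted p = 0.236 and 0.188). Of 20 lipoprotein genes 0 rose and 8 fell as deposited, against 3.32% and 18.5% of all genes, led by the receptor Lrp1 (14.9, 20.2 and 18.4 FPKM against 33.4, 35.5 and 40.4 FPKM, -1.00 ± 0.18, adjusted p = 0.000824). After GC correction Lrp1 was the single one of the 8 still called (-0.53, adjusted p = 0.00859). That call was lost with insulin replicate 1 left out as well (adjusted p = 0.0512). With median-ratio scaling 3 lipoprotein genes rose and 5 fell. As deposited 3 fell when insulin replicate 1 was left out, 5 when PBS replicate 2 was and 4 when PBS replicate 3 was.

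Of 22 urea cycle and amino acid genes 4 rose and 5 fell, beside 3.32% and 18.5% of all genes tested, so the share that fell was near that of all genes. The counts were 4 and 2 after GC correction and 6 and 3 with median-ratio scaling, and 3 fell with insulin replicate 1, insulin replicate 3, PBS replicate 2 or PBS replicate 3 left out. Agxt, the peroxisomal alanine-glyoxylate aminotransferase, measured 393, 399 and 408 FPKM in insulin against 111, 225 and 122 FPKM in PBS, a difference of 1.46 ± 0.24 (adjusted p = 0.000311). Slc25a15, the mitochondrial ornithine carrier of the urea cycle, measured 223, 227 and 223 FPKM against 115, 143 and 115 FPKM and rose by 0.85 ± 0.11 (adjusted p = 5.17e-05). Both sets of insulin libraries were tight and above every PBS library. Aass, the first enzyme of lysine breakdown, and Tat were the others that rose. Proline dehydrogenase, Prodh, and the branched-chain dehydrogenase subunit Bckdha fell by 0.86 and 0.75, and by 0.40 and 0.28 after GC correction. With insulin replicate 1 left out of the corrected fit, the adjusted p was 0.0558 for Prodh and 0.0415 for Bckdha. The carbamoyl phosphate synthetase Cps1, the entry step of the urea cycle, did not pass (0.20 ± 0.14, adjusted p = 0.317).

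Among the 12 highest differences were genes outside metabolism. Trp53inp1 (chr4:11156431-11174379, plus strand), a stress-induced regulator of p53 and autophagy, measured 62.0, 53.2 and 54.6 FPKM against 13.3, 14.8 and 10.6 FPKM, a difference of 2.06 ± 0.19 (adjusted p = 2.47e-07). Setdb2 (chr14:59402009-59440884, minus strand), a SET-domain protein of the histone methyltransferase family, measured 14.7, 17.2 and 26.1 FPKM against 4.27, 4.60 and 3.34 FPKM and rose by 1.97 ± 0.23 (adjusted p = 6.77e-06). Neither overlapped between groups, which the choice of the 12 highest required. Rgs16 (chr1:153740349-153745468, plus strand), a regulator of G protein signalling, measured 69.8, 45.9 and 20.5 FPKM against 19.7, 14.3 and 5.59 FPKM. The groups nearly met, and the call (1.70 ± 0.47, adjusted p = 0.0138) was lost when insulin replicate 1 (adjusted p = 0.0971) or PBS replicate 3 (0.102) was left out.

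Ppp1r3g (chr13:35958839-35970388, plus strand), a glycogen-targeting subunit of protein phosphatase 1, measured 8.20, 7.75 and 9.32 FPKM in insulin and 0.346, 0.0627 and 0.0359 FPKM in PBS. The difference was 3.04 ± 0.91 (adjusted p = 0.0207) with groups far apart. It stayed below 1 FPKM in every PBS library and so entered the test only through the insulin group, where it was high. Its SE, pooled over all 10 groups of the series, was wide, and the adjusted p was 0.0623 and 0.0532 with insulin replicate 1 or 3 left out, and 0.0506 and 0.0627 with PBS replicate 2 or 3 left out. The other 14 glycogen genes tested included 3 that fell as deposited (Pygl, Phka2 and Ppp1r3c) and none of these after GC correction or with median-ratio scaling. Their share was near the 18.5% of all genes tested that fell as deposited. Ly96, the endotoxin co-receptor, was listed at 0 in PBS replicates 1 and 3 and at 4.39 FPKM in PBS replicate 2, against 5.20, 4.51 and 7.37 FPKM in insulin. It did not pass after GC correction (adjusted p = 0.068), nor with insulin replicate 1 or 3 or PBS replicate 1 or 3 left out (0.0826, 0.0956, 0.128 and 0.151). Mir290a, a microRNA gene of an embryonic cluster, stood at 2.60, 2.07 and 1.45 FPKM against 0, 0.228 and 0 FPKM (1.49 ± 0.39, adjusted p = 0.0096). It too entered the test only through the insulin group. Poly(A) libraries do not measure mature microRNA, and leaving out insulin replicate 1 ended this call at adjusted p = 0.0506.

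Of 15 genes of the p53 and growth arrest list, 4 rose and 2 fell, against 3.32% and 18.5% of all genes tested. After GC correction 5 rose and 0 fell. As deposited 1 rose when insulin replicate 3 was left out, and 2 when either PBS replicate 2 or PBS replicate 3 was. Beside Trp53inp1 and Ddit4, the polo-like kinase Plk3 measured 18.2, 23.3 and 34.6 FPKM against 12.2, 10.7 and 8.55 FPKM (1.17 ± 0.37, adjusted p = 0.0283), and Gadd45g, a stress-inducible growth arrest gene, measured 15.5, 32.3 and 44.1 FPKM against 25.6, 8.53 and 11.0 FPKM (1.01 ± 0.33, adjusted p = 0.0294). Gadd45g overlapped between groups. With insulin replicate 3, PBS replicate 2 or PBS replicate 3 left out, the adjusted p of Plk3 was 0.122, 0.0577 and 0.105 and that of Gadd45g 0.162, 0.155 and 0.115. Gadd45g was also lost with insulin replicate 2 left out (0.0776). Of 13 immediate early genes, Klf10, a growth factor-inducible zinc finger gene, rose by 1.17 ± 0.24 (adjusted p = 0.00226). Jund fell by 0.81, but not with median-ratio scaling (adjusted p = 0.0523) or GC correction (adjusted p = 0.807).

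The lowest differences included membrane and secreted proteins. Paqr7 (chr4:134496697-134510235, plus strand), a membrane progestin receptor, measured 3.66, 4.35 and 4.51 FPKM in insulin and 18.8, 16.8 and 21.8 FPKM in PBS, a difference of -1.96 ± 0.28 (adjusted p = 9.1e-05). Notum (chr11:120653788-120661175, minus strand), a secreted enzyme that inactivates Wnt proteins, measured 3.00, 4.95 and 3.41 FPKM against 15.0, 13.0 and 13.5 FPKM, a difference of -1.65 ± 0.22 (adjusted p = 3.78e-05). The tight junction protein gene Cldn3 (chr5:134986214-134987472, plus strand) measured 9.91, 15.7 and 9.99 FPKM against 32.5, 35.0 and 48.7 FPKM (-1.64 ± 0.23, adjusted p = 9.21e-05). All 3 passed under the 4 scalings, at -1.68, -1.13 and -1.02 after GC correction, and their separate groups were required by the choice. Ttc7 (chr17:87282886-87381769, plus strand), whose human counterpart scaffolds a lipid kinase at the plasma membrane, measured 3.50, 2.79 and 4.24 FPKM against 12.6, 12.3 and 11.2 FPKM (-1.54 ± 0.16, adjusted p = 1.93e-06). The thymidine kinase gene Tk1 (chr11:117815526-117826092, minus strand), which supplies thymidine nucleotides in dividing cells, measured 3.80, 2.87 and 3.31 FPKM against 14.4, 9.27 and 11.2 FPKM (-1.53 ± 0.20, adjusted p = 4.16e-05). The potassium channel gene Kcnk5 (chr14:20140057-20181809, minus strand) measured 1.73, 3.58 and 1.66 FPKM against 14.4, 5.96 and 11.2 FPKM (-1.77 ± 0.31, adjusted p = 0.000719).

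Psmg4, a chaperone of proteasome assembly (chr13:34162964-34178173, plus strand), had the largest negative difference of the named genes, -2.22 ± 0.51 (adjusted p = 0.00444). It was listed at 0 in insulin replicates 1 and 2 and stood at 2.86 FPKM in replicate 3, against 4.53, 6.14 and 8.79 FPKM in PBS, and in this table a 0 stands for an empty cell. Psmg4 passed after GC correction (adjusted p = 0.0233), but not with insulin replicate 1 left out as well (0.108). The low genes that follow lost their calls in more settings. B3gnt2, a glycosyltransferase gene, the vesicle protein gene Vamp5 and the serum amyloid gene Saa3 fell by 1.66, 1.65 and 1.54, but none passed after GC correction (adjusted p = 0.0573, 0.105 and 0.0657) or with insulin replicate 1 left out (0.0523, 0.167 and 0.234). Leaving out PBS replicate 3 ended the same calls (0.0863, 0.134 and 0.102), and Vamp5 with median-ratio scaling (adjusted p = 0.0556). Setdb2 overlaps a processed pseudogene on its own strand. Saa3 belongs to a family of related genes, and whether its reads were split among them was not tested. Several genes named here overlap another gene on the opposite strand, among them Srebf1, Txnip, Rgs16, Ppp1r3g, Notum, Cldn3, Tk1, Crem and Plk3. The libraries were made with a strand-marking kit, but whether the quantification used strand is not given in the sources used here, so these values are less certain.

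Clock output genes were lower as deposited. Of 17 clock genes 0 rose and 6 fell, against 3.32% and 18.5% of all genes tested. The counts were 2 and 4 under median-ratio scaling and 0 and 1 after GC correction. Without insulin replicate 1 as deposited 3 fell, and without PBS replicate 2 1 rose and 2 fell. Dbp, a PAR-domain factor under direct clock control, measured 7.20, 10.1 and 6.86 FPKM against 22.7, 34.3 and 21.8 FPKM and fell by 1.58 (adjusted p = 0.0193). After GC correction the Dbp difference was -1.00 and did not pass (adjusted p = 0.2), and with insulin replicate 1, insulin replicate 3 or PBS replicate 2 left out the adjusted p was 0.0694, 0.0579 and 0.0723. Per3 fell by 0.91 and was at an adjusted p of 0.053 after GC correction. Arntl, the activator of the clock loop, did not pass (0.59 ± 0.26, adjusted p = 0.0997).

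Interferon-response genes fell in 6 of 18 cases and rose in 0, both as deposited and with median-ratio scaling, and in 3 after GC correction. Over all genes tested, the shares that fell in these settings were 18.5%, 9.51% and 3.95%. Irf1, the interferon-induced transcription factor, measured 3.81, 4.90 and 3.90 FPKM in insulin and 7.55, 10.3 and 11.4 FPKM in PBS (-1.04 ± 0.21, adjusted p = 0.0019). The immunoproteasome subunit Psmb9 fell by 1.25 ± 0.27 and the signalling factor Stat2 by 0.79 ± 0.17 (adjusted p = 0.00266 and 0.00325). These 3 also fell after GC correction (adjusted p = 0.0218 for Irf1, 0.039 for Psmb9 and 0.0422 for Stat2), and Oasl1, Tap1 and Isg15 did not pass then. With GC correction and insulin replicate 1 left out 0 of the 18 fell, and the adjusted p of Irf1, Psmb9 and Stat2 was 0.0611, 0.0918 and 0.109. The chemokine Cxcl1 fell by 1.33 ± 0.36 (adjusted p = 0.0113), a call lost with insulin replicate 1 left out (0.0679). Summed Kupffer cell markers, 11 genes of the resident macrophages, were 90.4 to 131 FPKM in insulin and 136 to 153 FPKM in PBS, and summed endothelial markers, 10 genes, 62.7 to 70.7 FPKM and 86.2 to 91.1 FPKM. As deposited 3 of 11 and 5 of 10 of these markers fell, and after GC correction 0 of 11 and 1 of 10 (Fcgr2b). The counts were 1 and 1 as deposited without insulin replicate 1, 0 and 3 without PBS replicate 3, and 1 and 0 with median-ratio scaling. Summed erythroid markers, 6 genes of which Slc4a1 was at 0 throughout, were also lower, at 219 to 262 FPKM in insulin and 311 to 458 FPKM in PBS. Of the 5 tested 1, Alas2, fell as deposited and 0 after GC correction or with median-ratio scaling, and their median was -0.65. None of the Kupffer cell or endothelial markers was at 0 in all 6 libraries. In bulk tissue fewer cells of a type and less RNA per cell cannot be told apart, and the part of these 3 cell types in the interferon genes was not tested. The lymphocyte markers, 9 genes, summed to 1.29 to 2.59 FPKM and 2.02 to 3.01 FPKM.

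Transcription factors of hepatocyte identity fell in 8 of 18 cases as deposited, in 7 with median-ratio scaling, and in 4 as deposited without insulin replicate 1. Of all genes tested, 18.5% fell as deposited and 9.51% with median-ratio scaling. Prox1, a homeobox factor of hepatocyte fate, measured 13.8, 16.4 and 14.3 FPKM against 27.6, 28.5 and 31.0 FPKM, a difference of -0.93 ± 0.14 (adjusted p = 0.00016) that was -0.91 after GC correction. The retinoid receptor gene Rxra and the orphan receptor gene Nr5a2 fell by 0.75 and 0.55, and by 0.31 and 0.59 after that correction. With insulin replicate 1 left out of the corrected fit, the adjusted p was 0.0729 for Rxra and 0.00462 for Nr5a2. Cebpa, Nr1h3 and Foxa3 did not pass after GC correction, while Hnf4a (0.22 as deposited) and Cebpb (-0.07 as deposited) were higher by 0.56 and 0.65. No gene of the zonation lists rose as deposited. Of 10 pericentral genes 0 passed in either direction as deposited and after GC correction, and of 13 periportal genes 6 fell as deposited and 0 after GC correction. With median-ratio scaling 1 periportal gene rose and 4 fell.

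**Figure D3:**
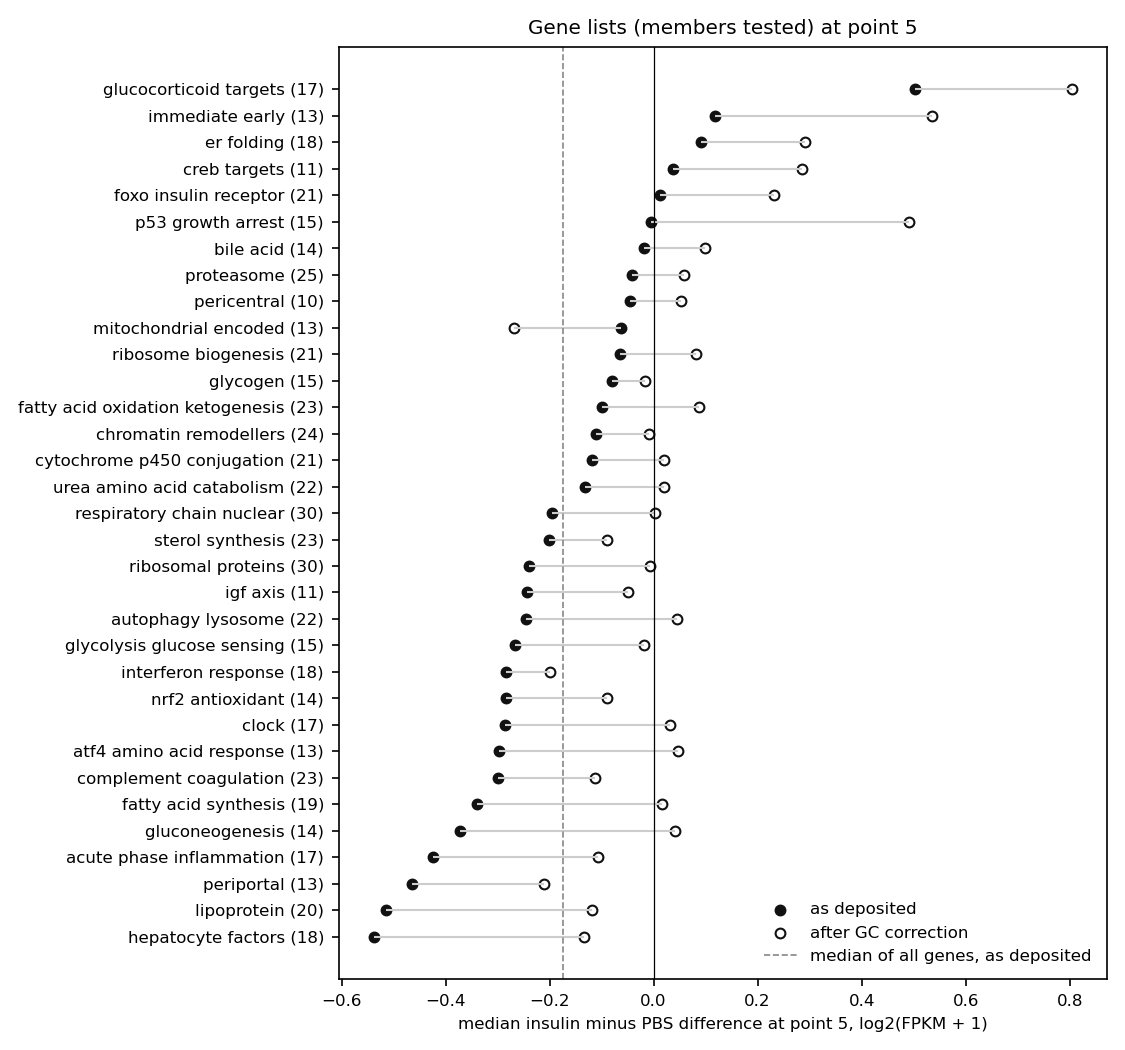
Median insulin minus PBS difference at point 5, in log2(FPKM + 1), of each biological gene list (number of members tested in parentheses), as deposited (filled) and after GC correction (open). The dashed line is the median of all genes as deposited, -0.17. Glucocorticoid targets are at the top in both, at 0.50 and 0.80, and most lists below the line move toward 0 with the correction.

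Few members of the housekeeping lists were called after GC correction. Of 30 ribosomal protein genes, 6 fell as deposited, near the 18.5% of all genes tested, 1 without insulin replicate 1 and 0 after GC correction. Of 25 proteasome genes 2 fell as deposited and 0 after GC correction, while with median-ratio scaling 5 rose and 1 fell. Among 30 nuclear respiratory chain genes, 9 fell and 1 (Cycs) rose as deposited, and 3 fell (Cox6c, Ndufa1 and Ndufa4) after GC correction. Leaving out insulin replicate 1 or PBS replicate 3 left 1 lower as deposited and leaving out PBS replicate 2 left 4, and with median-ratio scaling 3 rose and 3 fell. None of the 13 mitochondrially encoded mRNAs passed in either fit. In the endoplasmic reticulum folding list the chaperone calnexin, Canx, rose by 0.38 ± 0.11 (adjusted p = 0.0174), a call lost with insulin replicate 3 or PBS replicate 3 left out (0.0805 and 0.0906), and the other 17 did not pass as deposited. Among 14 bile acid genes the uptake transporter Slc10a1 fell by 0.55 ± 0.12 (adjusted p = 0.00312), also after GC correction (-0.45, adjusted p = 0.0071). Cyp7a1, the rate-limiting enzyme of bile acid synthesis, ranged from 12.9 to 36.1 FPKM and from 7.99 to 41.8 FPKM and did not pass (adjusted p = 0.993). Of 23 complement and coagulation genes, 8 fell as deposited, against 18.5% of all genes tested. Of these, 1, coagulation factor F7 (-0.81 ± 0.13, adjusted p = 0.000402), fell after GC correction as well (-0.44, adjusted p = 0.0257). Leaving out insulin replicate 1 left 2 lower as deposited, leaving out either PBS replicate 2 or PBS replicate 3 left 3, and median-ratio scaling gave 3 lower and 1 higher.

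Point 4 had its own 6 libraries, and the same genes were compared there. At point 4, 1796 genes differed (14.9%), and 1052 were called in the same direction at both points, which is 40.1% of the point 5 calls and 58.6% of the point 4 calls. Both points carried the trend with GC. A test of the difference between points, the insulin minus PBS difference at point 5 less that at point 4, called 0 genes (limma, adjusted p below 0.05), with 712 at an unadjusted p under 0.05. Pdk4 differed by 3.05 at point 5 and 3.30 at point 4, Txnip by 1.86 and 1.71, Ppargc1a by 1.56 and 1.44, and Trp53inp1 by 2.06 and 2.15. Lpin1 differed by 2.17 and 0.60, Srebf1 by -1.55 and -0.17, and Setdb2 by 1.97 and 0.65. For these last 3 genes the change between points was 1.58 ± 0.39, -1.38 ± 0.34 and 1.32 ± 0.32, with the same adjusted p of 0.516, so their calls at point 5 and not at point 4 do not show that the points differ. The same test against point 2 called 129 genes (1.07%). Lpin1 in PBS stood at 80.6 ± 7.18 FPKM (SD, n = 3) at point 4 and 38.9 ± 7.47 at point 5, and in insulin it stood at 124 ± 24.6 and 181 ± 47.6. The Srebf1 level in insulin was 6.01 ± 0.251 FPKM at point 4 and 1.93 ± 0.474 at point 5, beside 6.92 ± 0.938 and 7.52 ± 0.542 in PBS.

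**Figure D4:**
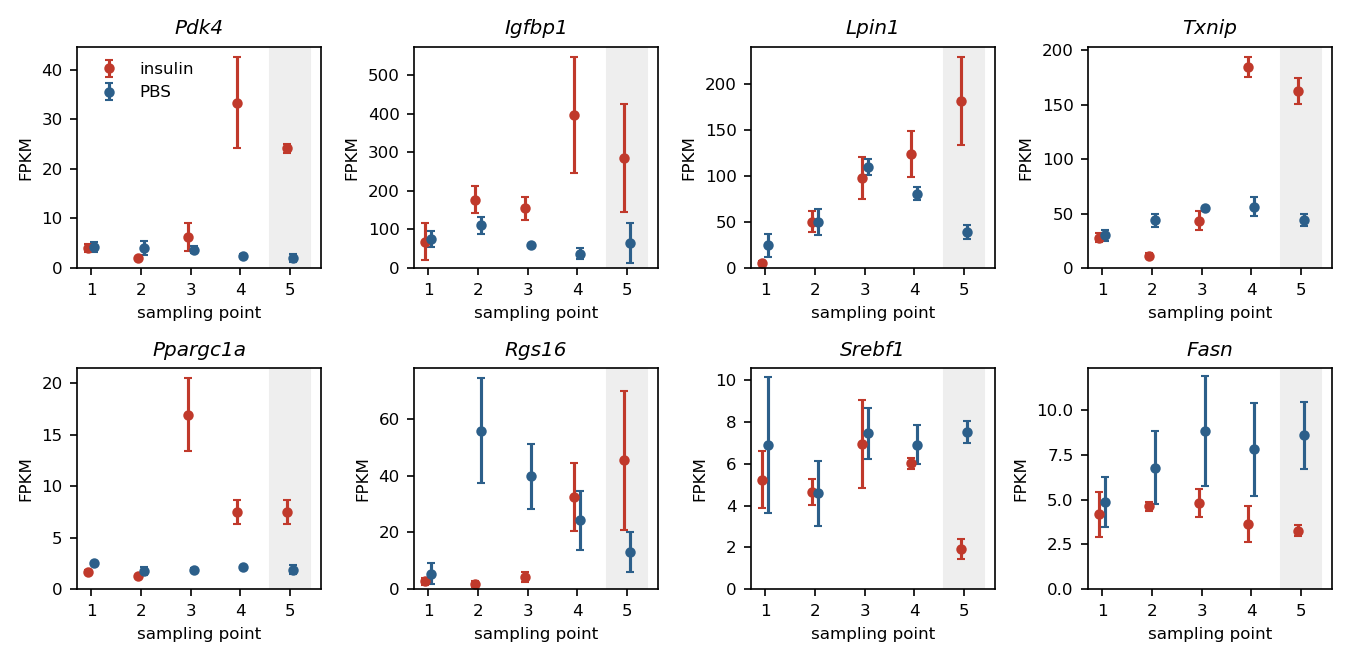
Mean FPKM with SD (n = 3 libraries) of 8 genes in insulin (red) and PBS (blue) at sampling points 1 to 5, with point 5 shaded. At point 5 Pdk4, Igfbp1, Lpin1, Txnip, Ppargc1a and Rgs16 are higher in insulin and Srebf1 and Fasn are lower, and Srebf1 in insulin is at its lowest there, 1.93 FPKM.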

How the data were processed

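The series holds 30 liver libraries, of which the 6 of sampling point 5 are compared. HISAT2 2.1.0, SAMtools 1.9 and StringTie 2.0.3 were used on GRCm38 (mm10), per the submitters' processing notes. For the annotation and strand setting, nothing is given in the sources used here. The authors deposited FPKM, scaled by them to transcript length and mapped fragments, so no count test was run. No cell of the table held 0 and 32.2% were empty. Empty cells were set to 0, which concerned 200 of the genes kept.

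Values were taken as log2(FPKM + 1), a pseudocount of 1. Genes at 1 FPKM in at least 3 of the 6 libraries were kept. A gene at that level in exactly 3 libraries was inside (514 genes) and one in exactly 2 was outside (552). Of the genes kept, 24 reached 1 FPKM in the 3 insulin libraries and in no PBS library (14 were called higher), and 152 the reverse (101 called lower), so these passed only through the group where they were high. limma 3.58.1 in R 4.3.3 was fitted with 1 mean per group over the 10 groups of the series, a trend of the variance with level (20 residual degrees of freedom), and Benjamini-Hochberg adjusted p-values over all genes kept, with a threshold of 0.05. The scripts were tested on simulated data.

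Depth was read roughly from the steps of low values, of which 38.7% to 40.6% fell within 0.05 of a whole read (7.99% to 8.58% at the median of the depths tried), at 25.4 to 34.7 M reads in insulin and 23.4 to 34.6 M reads in PBS. Reads were not recovered. Its precision is limited accordingly, and no interval is given. Gene positions, GC content and transcript lengths come from GENCODE M21, matched by gene ID for 29066 of 29117 genes, and a GC value was found for 12015 of the 12018 genes kept.

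The GC correction subtracted, per library, a loess curve (span 0.3) of the deviation from the mean of all libraries on GC content. It was added after the data were seen, as were its combinations with the replicate block or with a library left out, median-ratio scaling without insulin replicate 1, and the test of point 5 against point 2. The other alternatives were a pseudocount of 0.1, 3 other filters, quantile normalization, median-ratio scaling, a block for the replicate number, the series as a random effect, a fit of the 6 libraries alone, and each library left out.

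The members, the 44 gene lists (33 biological, 11 of markers and RNA quality) and the rules were chosen with earlier results of these data known. The genes named are 6 textbook targets, the 12 highest and 12 lowest differences among called genes with separate groups, a mean of 1 FPKM and a proper symbol, up to 5 members per list by adjusted p, members of central role, and list members named to say which ones moved. The 6 highest and lowest for point 5 against point 4 were also asked for, and no gene qualified. Some genes that the rule names are left out of the text.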

Additional observations from a re-analysis of the deposited data

Results flagged for a closer look

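The insulin minus PBS difference of 11 named genes was not the same at point 5 as at point 2, by a test of the change between points chosen after the data were seen (limma, 129 of 12018 genes at an adjusted p below 0.05, 1.07%). Positive changes are given first. Rgs16 differed by -4.35 at point 2 and 1.70 at point 5, a change of 6.05 (adjusted p = 6.46e-06). In PBS its mean level was 55.9 FPKM at point 2 and 13.2 FPKM at point 5, and in insulin 1.78 and 45.4 FPKM, so both treatments moved. Pdk4 went from -0.74 to 3.05, a change of 3.80 (adjusted p = 6.43e-07), and Txnip from -1.85 to 1.86, a change of 3.71 (adjusted p = 1.17e-10). The Txnip level in insulin was 11.5 FPKM at point 2 and 163 FPKM at point 5, beside 43.8 and 44.4 FPKM in PBS. Lpin1 changed by 2.17 (adjusted p = 0.00357), Setdb2 by 2.13 (adjusted p = 0.000634) and Ppargc1a by 1.80 (adjusted p = 1.03e-05), each from near 0 at point 2 (0.00, -0.15 and -0.24).

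Among negative changes, Irs2 went from 2.54 at point 2 to 0.26, a change of -2.28 (adjusted p = 0.0345). Srebf1 changed by -1.60 (adjusted p = 0.0152), Paqr7 by -1.60 (adjusted p = 0.0445), Ttc7 by -1.37 (adjusted p = 0.00184) and Tk1 by -1.37 (adjusted p = 0.0145). The point 2 libraries are other libraries than those of point 5, and no lane held both treatments at either point. All of these changes are from the fit as deposited. PBS replicate 1 had a rho with GC content of -0.31 at point 2 and 0.33 at point 5. The test called 183 genes after GC correction and 211 with median-ratio scaling. The part of GC content in the changes of the genes named here was not tested.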

How the results depend on the processing

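Against 2621 genes called (399 higher, 2222 lower), the pseudocount, the filters and the random series effect left these counts within 1.5 times, but a pseudocount of 0.1 raised the genes past 1 on the log2 scale from 53 higher and 200 lower to 85 and 504. With only the 6 libraries in the fit 1342 were called (167 higher, 1175 lower). Same-numbered libraries of the treatments showed little likeness at point 5 (correlations of deviations from group means of 0.03, 0.08 and -0.08, with 2 of 6 libraries closest to their own number). So few libraries cannot settle whether they were paired. The replicate block gave 3187, and together with only the 6 libraries 476 (65 higher, 411 lower). Median-ratio scaling gave 1174 higher and 1143 lower, quantile normalization 1184 and 1147. GC correction gave 1024 called (475 lower), with the replicate block 1072 (508 lower), and without insulin replicate 1 551 (259 lower). Median-ratio scaling without insulin replicate 1 gave 1426 (747 higher, 679 lower). Leaving out 1 library gave 1193 to 2590 called, 208 to 438 higher and 915 to 2288 lower, with the fewest called without insulin replicate 1, and 1409 without PBS replicate 3. Point 5 against point 4 called 1 gene without PBS replicate 2 and 0 otherwise. Of 137 named genes called, 58 kept their call after GC correction, 76 without insulin replicate 1 and 44 with only the 6 libraries and the replicate block, under which none turned. Per1 turned from -0.49 to 0.032 after GC correction, 0.032 with the block as well and 0.060 without insulin replicate 1. In that last setting Ndufv1, Psmc3 and Keap1 turned to 0.036, 0.016 and 0.084. The trend with GC is removed by the correction's own construction. For the other settings the cause was not tested, except that fewer libraries were in those that leave some out. Depth was similar in both groups and limits mainly genes near 1 FPKM.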
